A study of Homo sapiens with 3 samples.

Results

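A group of genes that brake the cell cycle or answer to p53 were followed in 1205Lu human melanoma cells. Of the 10, 9 could be measured, and 2 of these, GDF15 and GADD45A, differed by 2-fold or more between culture states. Both were higher in the new monolayer than in the melanoma bodies, as were 10.4% of all genes, while 13.7% were lower. Both were also higher than in the original monolayer, as were 4.37% of all genes, while 5.97% were lower. The genes were CDKN1A, CDKN1B, CDKN1C, CDKN2A, CDKN2B, CDKN2C, MDM2, GDF15, BTG2 and GADD45A. They were taken as every probe whose gene name on the array equalled 1 of these symbols, which gave 15 probes for 10 genes of 41000 probes for 30990 genes in all. 5 genes had 2 probes and 5 had 1, and 4 of the probes were printed in 10 spots while the others had 1 spot.

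1205Lu is an established line obtained from a lung metastasis that a human melanoma line formed in a mouse. RNA of 3 populations was hybridised, with 1 array for each. The original monolayer (OM) grew 14 days in standard medium, RPMI-1640 with fetal calf serum. The melanoma bodies (MB), attached 3D clusters, grew 14 days in human embryonic stem cell (hESC) medium, DMEM/F-12 with a serum replacement. The new monolayer (NM) came from cells kept 14 days as bodies in hESC medium and returned to standard medium for 10 days, with leftover bodies taken off before RNA was made. Medium, serum, 3D shape and time in culture changed together between MB and the monolayers, so their parts in those differences cannot be told apart. OM and NM shared medium and monolayer growth. They differed in the time spent as bodies and in days in standard medium, which also cannot be told apart. All 3 arrays were 1-colour arrays on 1 slide.

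CDK inhibitors are small proteins that hold back the kinases driving a cell through its division cycle. The CIP/KIP group (p21, p27 and p57, from CDKN1A, CDKN1B and CDKN1C) binds many cyclin and CDK pairs, whereas the INK4 group (p16, p15 and p18, from CDKN2A, CDKN2B and CDKN2C) binds CDK4 and CDK6 and so keeps RB active. The transcription factor p53 switches on CDKN1A, GDF15, BTG2 and GADD45A when cells are damaged or stressed, and switches on MDM2, whose protein in turn marks p53 for destruction. The CDKN2A locus is often lost in melanoma, and several of these genes also answer to signals other than p53.

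Signals are given as deposited, in arbitrary units (a.u.), and folds and log2 ratios were taken after the arrays were scaled to the average signal of the housekeeping genes ACTB, GAPDH and HSP90AA1. The scaling divided the signals by 0.978 on MB and 0.877 on NM relative to OM. Single spots of 1 probe varied little, and the SD of a log2 ratio between single spots of 2 arrays was 0.075 for MB over OM, 0.074 for MB over NM and 0.075 for NM over OM, from probes with 10 spots above 100 a.u. A ratio under 1.11-fold lay within the 95% range of that spread, called the spot error below. This spread is technical. With 1 array per population there was no biological replicate, and the comparisons carry no p-value.

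The probes that carry the results are shown by the first 30 of their 60 bases, in the direction of the transcript, with positions of the whole probe in hg17. Both probes of CDKN1B and of CDKN2A are shown because the probes of each gene gave unlike readings.
GDF15, chr19:18360890-18360949, plus strand: tattggggtgaccttcttggggactcgggg
GADD45A, chr1:67865392-67865451, plus strand: cctgccttaagtcaacttatttgtttttgc
CDKN2C, chr1:51152214-51152273, plus strand: ttggcttttcccttgcttccccttttgcca
CDKN1B, probe with 10 spots, chr12:12766207-12766266, plus strand: agcacacttgtaggataagtgaaatggata
CDKN1B, probe with 1 spot, chr12:12762386-12762445, plus strand: gcgcctttaattggggctccggctaactct
CDKN2A, probe with 1 spot, chr9:21958039-21958098, minus strand: ttaaaaatgtcctgccttttaacgtagata
CDKN2A, probe with 10 spots, chr9:21957780-21957839, minus strand: gggttactggcttctcttgagtcacactgc
Which exon or untranslated region each probe lies in was not analysed here.

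The cells' own markers came first. SOX10 and S100B, which mark melanocytes and melanoma, gave 6254 and 25155 a.u. on OM, 9382 and 43760 on MB, and 4887 and 13307 on NM, while the pigment enzymes TYR and TYRP1 were not well above background on any array. MITF gave 423, 718 and 551 a.u. on OM, MB and NM, whereas PMEL was lowest on MB with 286, 209 and 271 a.u. DCT gave 66.7, 62.8 and 64.1 a.u., and MLANA was near background at 31.3, 39.5 and 26.5 a.u. No marker of leukocytes, endothelium or epithelium (8 genes) passed 110 a.u. on any array, and PTPRC, CDH5, EPCAM, KRT5 and CDH1 were not well above background. CD3E (109.7, 84.8 and 87.4 a.u. on OM, MB and NM) and CD14 (70.3, 60.2 and 58.7 a.u.) were well above background on every array. PECAM1 was so on MB only, with 12.3, 87.7 and 13.6 a.u. Of 4 fibroblast genes, PDGFRA gave 5519, 9882 and 3174 a.u. and LUM and COL1A1 were not well above background. DCN was well above background on MB only, with 12.9, 26.8 and 22.5 a.u. In such bulk RNA, fewer cells with a transcript and less of it per cell cannot be told apart.

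Of the 10 genes, 9 passed 100 a.u., and CDKN2B did not. Between MB and OM, 0 of 9 were 2-fold or more higher in MB and 0 were lower, where 6.76% and 4.22% of 17824 genes were called. Between MB and NM, 2 of 9 were 2-fold or more lower in MB (GDF15 and GADD45A) and 0 were higher, where 10.4% and 13.7% of 17780 genes were called. With both directions counted, these 2 calls are near the background share. Between NM and OM the same 2 genes were higher in NM and 0 were lower, where 4.37% and 5.97% of 17568 genes were called. At the study's own threshold of 5-fold, 0 of 9 passed in any comparison. There, 1.04% of genes were higher and 0.69% lower for MB against OM, 2.88% and 1.67% for MB against NM, and 0.763% and 1.01% for NM against OM. The median log2 ratio of the 9 genes was 0.05 for MB over OM (0.09 over all genes), -0.45 for MB over NM (0.04) and 0.53 for NM over OM (0.08). These comparisons share arrays, so a gene high on the NM array counts in both of those that hold it.

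**Figure D1:**
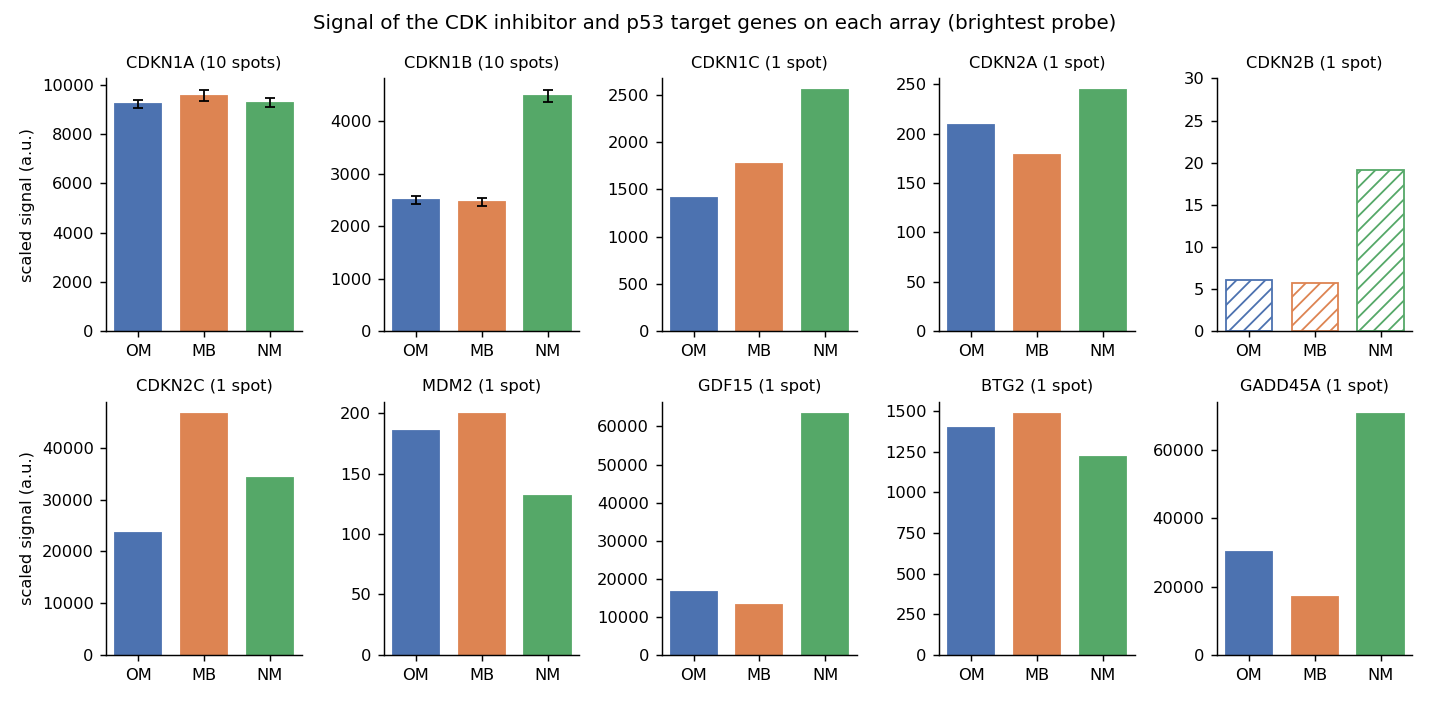
Scaled signal (a.u., vertical axis from 0 in each panel) of the brightest probe of each of the 10 genes on the OM, MB and NM arrays. Bars are the signal of 1 array, black error bars are the SD over replicate spots where a probe has 10, and hatched bars are not well above background. GDF15 and GADD45A stand highest on NM, CDKN2C on MB, CDKN1A is nearly level, and CDKN2B stays at background.

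CDKN1A, whose product p21 is the best-known arrest factor under p53, was the flattest of the 9. Its probe with 10 spots (chr6:36762684-36762743 in hg17, plus strand) gave 9217 ± 160 a.u. for OM (SD, n = 10 spots), 9326 ± 214 for MB (n = 9 spots) and 8133 ± 173 for NM (n = 9 spots). After scaling, the 3 arrays lay within 1.04-fold of each other, with log2 ratios of 0.05 (MB over OM), 0.04 (MB over NM) and 0.01 (NM over OM). The order of so small a range is not fixed, since each of these signs turned under some of the other scalings. A second probe with 1 spot (chr6:36760156-36760215) gave 687, 769 and 701 a.u. on OM, MB and NM, and log2 ratios of 0.20, -0.02 and 0.22. Both probes thus put MB and NM within 1.11-fold of each other.

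CDKN1B, which encodes p27, stood well apart in the new monolayer by its bright probe and not by its dim one. The probe with 10 spots gave 2506 ± 78.9 a.u. for OM, 2409 ± 67.2 for MB and 3928 ± 97.3 for NM (SD, n = 10 spots each). The lowest of the NM spots, 3799 a.u., lay above the highest OM spot, 2611 a.u., and the highest MB spot, 2547 a.u. NM was 1.79-fold above OM and 1.82-fold above MB, whereas MB and OM differed by a log2 ratio of -0.02, within the spot error. The probe with 1 spot, which lies nearer the 5′ end of the gene, gave 207, 166 and 191 a.u. on OM, MB and NM, with NM over OM at 1.05-fold. The probes therefore differed by 0.77 in log2 ratio for NM over OM, and 8.51% of the 5100 genes with a pair of probes well above background differed by more, with a median of 0.19.

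**Figure D2:**
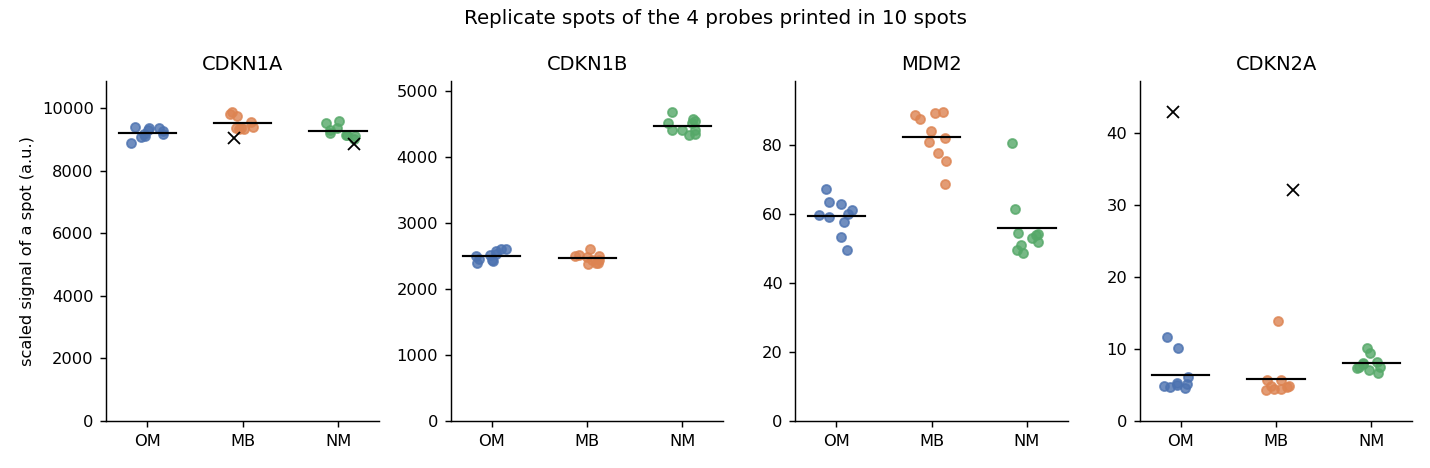
Scaled signal of each spot (a.u., vertical axis from 0) of the 4 probes printed in 10 spots, for CDKN1A, CDKN1B, MDM2 and CDKN2A on the OM, MB and NM arrays. Circles are spots used, black lines their means, and crosses are spots that the scanning software marked as outliers. All CDKN1B spots on NM lie above all on OM and MB, and the CDKN2A spots stay near background.

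CDKN1C, which encodes p57 and is an imprinted gene with a role in growth control before birth, was also highest on NM. Its 1 spot (chr11:2861479-2861538, minus strand) gave 1404, 1730 and 2233 a.u. on OM, MB and NM. NM was 1.81-fold above OM and 1.44-fold above MB, and MB was 1.26-fold above OM. Each of the 3 steps was past the spot error, although MB over OM came down to 1.02-fold under another scaling. CDKN1A, CDKN1B and CDKN1C thus gave log2 ratios of NM over OM of 0.01, 0.84 and 0.86, each below 2-fold.

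Among the INK4 genes, CDKN2A gave a weak signal on 1 probe and none on the other. This gene yields p16 and, from another reading frame, ARF, a protein that restrains MDM2. The probe with 1 spot gave 209, 174 and 214 a.u. on OM, MB and NM, and log2 ratios of -0.23 (MB over OM), -0.45 (MB over NM) and 0.22 (NM over OM). The probe with 10 spots, which starts 259 bases away on the same chromosome and was designed against the same transcript record, gave means of 6.36, 5.73 and 7.0 a.u. on OM, MB and NM, with no used spot well above background. One spot of it on OM (42.9 a.u.) and 1 on MB (31.3 a.u.) were marked as outliers and left out. Which probe reads the CDKN2A transcript was not tested.

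CDKN2B, the neighbour of CDKN2A that encodes p15, was at background throughout. Its probe at chr9:21994945-21995004 (minus strand) gave 8.74, 4.85 and 7.33 a.u. on OM, MB and NM. The other, at chr9:21998979-21999038, gave 6.06, 5.57 and 16.8 a.u. No array was well above background for either, so no fold is given. MTAP, the gene beside CDKN2A, was looked up after the values were seen and was clearly measured, with 1736, 1998 and 1076 a.u. on OM, MB and NM at its brightest probe (chr9:21827969-21828028).

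CDKN2C, which encodes p18, was the CDK inhibitor with the highest ratio of MB over OM. Its 1 spot gave 23641, 45511 and 30043 a.u. on OM, MB and NM. MB was 1.97-fold above OM, just under the 2-fold line, and 1.36-fold above NM, and NM was 1.45-fold above OM. The order OM, NM, MB held past the spot error at each step. Of all genes measured, 7.06% had a higher ratio of MB over OM. Both other genes listed as CDK inhibitors, CDKN2D and CDKN3, were lowest on MB. CDKN2D, which encodes p19, gave 29232, 22928 and 39816 a.u. on OM, MB and NM, with a log2 ratio of -0.95 for MB over NM. CDKN3, a phosphatase that acts on CDK2, gave -0.64 for the same ratio, with NM over OM at 1.09-fold, inside the spot error. Neither passed 2-fold in any comparison with the reported scaling. Under 75th percentile scaling, 1 was 2-fold or more lower in MB than NM.

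For the kinases and cyclins that these inhibitors act on, the genes above 100 a.u. lay within 2-fold of OM. Of 15 CDK, cyclin and RB genes, 14 passed 100 a.u. For MB against OM 0 were called, where 6.76% of all genes were higher and 4.22% lower. The median log2 ratio was 0.36 (0.09 over all genes). For NM against OM 0 were called, where 4.37% of all genes were higher and 5.97% lower. The median was 0.41 (0.08 over all genes). At such shares, counts of 0 are common among so few genes. The gene under 100 a.u., the cyclin CCND2, was not well above background on OM or MB and gave 36.9 a.u. on NM, at least 2.01-fold above OM. For MB against NM, 2 were higher in MB and 0 lower, with a median of -0.04, where 13.7% and 10.4% of all genes were called, so the 2 calls are near the background share. The 2 were the INK4 partner CDK6 (10758, 18722 and 6169 a.u. on OM, MB and NM, log2 ratio 1.45) and its partner cyclin CCND1 (17291, 23864 and 10027 a.u., 1.09). Under 75th percentile and spike-in scaling the counts became 1 higher and 1 lower. CCND1 stayed higher in MB but fell below 2-fold, and a different gene of the list was called lower. Of 16 proliferation genes, 0 were called for MB against OM (median 0.26), 1 was higher in MB than NM (MKI67, log2 ratio 1.05), and 0 were called for NM against OM (median 0.28). The shares and medians over all genes are those given above for each comparison, so these counts of 0 also say little.

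**Figure D3:**
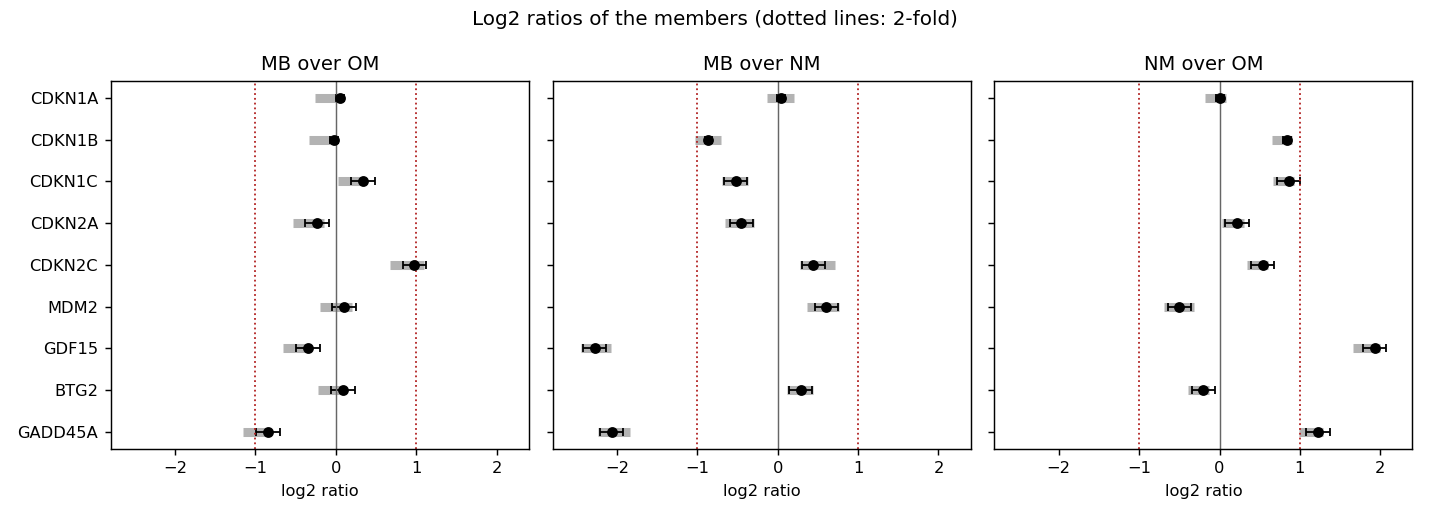
Log2 ratios (horizontal axis) of the 9 genes above 100 a.u. for MB over OM, MB over NM and NM over OM. Points are the values reported, black bars span the 95% range of the spot error, grey bars span the values under all alternative settings, and dotted lines mark 2-fold. GDF15 and GADD45A lie past the 2-fold line for MB over NM and NM over OM, and CDKN2C lies next to it for MB over OM.

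MDM2, the gene whose product restrains p53 and which p53 itself switches on, was weak on every array and lowest on NM. The 1-spot probe (chr12:67489279-67489338) gave 185, 195 and 115 a.u. on OM, MB and NM, so that MB was 1.52-fold above NM and NM 1.41-fold below OM. The probe with 10 spots (chr12:67520089-67520148) gave 59.3 ± 5.1 a.u. for OM, 80.4 ± 6.8 for MB and 48.9 ± 8.2 for NM (SD, n = 10 spots each). On it MB was 1.48-fold above NM and 1.39-fold above OM, against 1.07-fold above OM on the other probe. The probes gave log2 ratios of MB over NM of 0.60 and 0.56. For NM over OM they gave -0.50 and -0.09.

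Genes that act on p53 signalling were looked at next. MDM4, a relative of MDM2 that also restrains p53, gave 1988, 1689 and 1497 a.u. on OM, MB and NM, with log2 ratios of -0.20 (MB over OM), 0.02 (MB over NM) and -0.22 (NM over OM). PPM1D, a phosphatase that turns p53 signalling down, gave 677, 1389 and 834 a.u. on OM, MB and NM, which put MB 2.10-fold over OM. That ratio came down to 1.70-fold over the alternative settings. ATM, the kinase that answers DNA breaks, was 2.32-fold higher in MB than NM (646, 844 and 327 a.u.). MDM4 lay within 2-fold in every comparison, and its sign for MB over NM turned under some alternative settings. TP63 gave 88.3 a.u. on OM, with MB and NM not well above background, and TP73 gave 73.0, 73.1 and 99.3 a.u., so neither was counted.

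GDF15 had the widest range of the 9 genes. It encodes a secreted stress cytokine of the TGF-beta superfamily. Its 1 spot gave 16617, 12758 and 55466 a.u. on OM, MB and NM. NM stood apart from both other arrays, 3.81-fold above OM and 4.84-fold above MB, while MB was 1.27-fold below OM. Of all genes, 1.03% had a higher ratio of NM over OM and 1.76% had a lower ratio of MB over NM. GFRAL and RET, which together form the GDF15 receptor, were not well above background on any array.

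GADD45A, which encodes a small stress protein that binds PCNA and CDK1 and feeds into p38 and JNK signalling, had the second widest range. Its 1 spot gave 30264, 16472 and 61878 a.u. on OM, MB and NM. NM was 2.33-fold above OM and 4.19-fold above MB, and MB was 1.80-fold below OM. All 3 arrays differed past the spot error, in the order MB, OM, NM. For MB over NM, 2.11% of genes had a lower ratio, and for NM over OM 2.72% had a higher one. None of the members' spots was saturated, so neither GDF15 nor GADD45A was cut off at the top of the scale.

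BTG2, an antiproliferative gene whose product helps shorten the tails of messenger RNAs, did not share this pattern. Its 1 spot (chr1:200010111-200010170) gave 1396, 1447 and 1066 a.u. on OM, MB and NM, a range of 1.22-fold with NM lowest. MB and OM lay within the spot error. Of 7 relatives of BTG2 and GADD45A, 5 passed 100 a.u. and 1, GADD45B, passed 2-fold. GADD45B gave 7944, 2359 and 13380 a.u. on OM, MB and NM, so that MB was 3.29-fold below OM and 6.32-fold below NM. Over all genes, MB against OM had 4.22% called lower and 6.76% higher. MB against NM had 10.4% called lower and 13.7% higher, so 1 call among 5 genes says little. For MB against NM, 2 relatives were called lower under 75th percentile and spike-in scaling, and 1 was called higher without scaling. BTG4 and GADD45G were not well above background. The 3 relatives BTG1, BTG3 and GADD45B were lowest on MB and highest on NM, whereas TOB1 and TOB2 were highest on MB and lowest on NM. These orders took 27% and 27.2% of all genes, so the split is not particular to this family.

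The wider set of p53 targets held genes called in both directions. Of 30 other p53 target genes, 29 passed 100 a.u. for MB against NM, where 4 were 2-fold or more higher in MB, 5 lower, and the median log2 ratio was -0.18 (0.04 over all genes). Over all genes 13.7% were higher and 10.4% lower in this comparison, so calls in both directions are not particular to the list. The 4 became 2 under 6 of the alternatives and 6 without scaling. The 5 became 3 without scaling and 6 under 75th percentile scaling. The 4 were BAX and TP53I3, which act in cell death and redox stress, TP53INP1 and ZMAT3, with ratios of 1.55, 2.06, 1.02 and 1.09. The 5 were the death genes PMAIP1 (-1.02), FAS (-1.88) and TNFRSF10B (-1.13), the sestrin SESN2 (-3.28) and SFN (-2.64), whose product is 14-3-3 sigma. TP53I3 gave 5090, 5973 and 1284 a.u. on OM, MB and NM. FAS, a death receptor, gave 1269, 838 and 2775 a.u. on OM, MB and NM. TP53I3 was thus lowest where FAS was highest, on the NM array.

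Against OM the split lay mostly on the NM side. For NM over OM, 4 of 29 were higher (FAS 1.32, SESN2 1.31, SFN 2.08 and SUSD6 1.23), 2 were lower (BAX -1.30 and TP53I3 -1.80), and the median was 0.12, where 4.37% and 5.97% of all genes were called. For MB over OM, 0 of 28 were higher and 1 was lower, SESN2 at -1.97 (3809, 950 and 8284 a.u. on OM, MB and NM), with a median of 0.11. In that comparison 6.76% of all genes were higher and 4.22% lower, with a median of 0.09. The 1 lower call is thus near the background share, and it became 2 under 75th percentile scaling and without scaling. Among the 28 genes above 100 a.u. in every comparison, 9 were lowest on MB and highest on NM, as GADD45A and GDF15 were, and 10 were highest on MB and lowest on NM, as MDM2 and BTG2 were, although the place of MB above OM for these 2 turned under 75th percentile, quantile and spike-in scaling. Over all 16982 such genes these orders took 27% and 27.2%. Across the alternative settings the counts ran from 8 to 12 and from 5 to 11, and under spike-in scaling they were 12 and 5. The calls of PMAIP1, TNFRSF10B, TP53INP1, ZMAT3 and BAX lay under 2-fold under at least 1 alternative, as did those of CCND1, MKI67 and PPM1D. SFN, which was dim on OM and MB at 30.9 and 20.4 a.u., ranged from 2.31-fold to 7.35-fold lower in MB than NM over the alternatives.

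**Figure D4:**
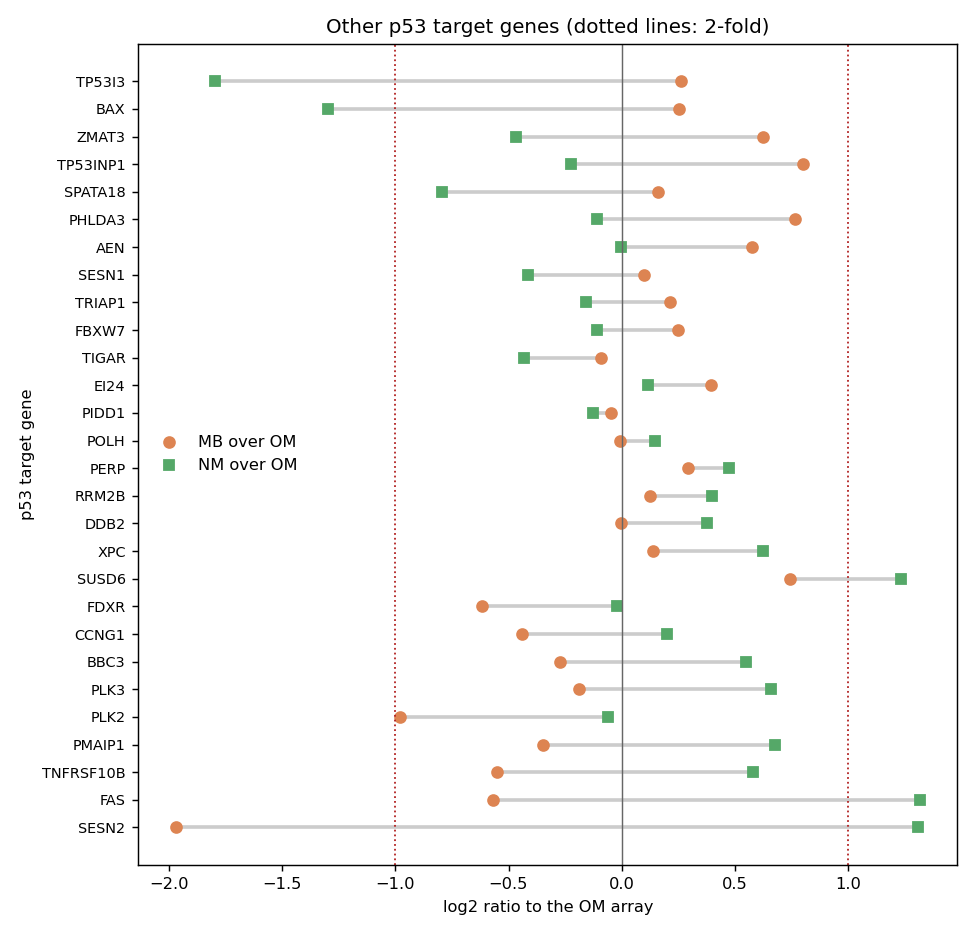
Log2 ratios to the OM array (horizontal axis) of the 28 other p53 target genes above 100 a.u. in every comparison, ordered by MB over NM. Circles are MB, squares are NM, grey lines join them and dotted lines mark 2-fold. TP53I3 and BAX lie lowest on NM at the top, and FAS and SESN2 lie highest on NM at the bottom, where SESN2 is also lowest on MB.

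Genes of the ATF4 stress response, which GDF15, GADD45A and SESN2 are known to answer to, were mostly low on MB and high on NM. Of 15 of them, 12 were 2-fold or more lower in MB than OM, 14 lower in MB than NM and 7 higher in NM than OM, with median log2 ratios of -1.76, -3.20 and 0.93, and their part in the GDF15 and GADD45A values was not tested. Over all genes these shares were 4.22%, 10.4% and 4.37%, and the 7 became 4 under quantile normalization, spike-in scaling and no scaling. GDF15 gave log2 ratios of -0.35 for MB over OM and 1.93 for NM over OM, and GADD45A -0.84 and 1.22. ATF4 itself was 1.27-fold above OM on NM, and that sign turned under quantile normalization. PPP1R15A was 1.12-fold above OM on MB, a sign that turned in 3 settings. This list was chosen with earlier results of these data known. The study itself reported ATF3, CHAC1, DDIT4, PSAT1 and STC2 as lower in MB on these arrays. The list's counts are therefore not independent of the values they describe. The log2 ratios of MB over NM of the 14 were -1.87 (ATF4), -4.11 (DDIT3), -3.29 (ATF3), -3.52 (TRIB3), -4.08 (CHAC1), -3.26 (ASNS), -3.20 (DDIT4), -3.06 (VLDLR), -4.56 (STC2), -3.75 (PSAT1), -2.57 (PHGDH), -1.13 (CEBPB), -1.83 (CEBPG) and -1.79 (PPP1R15A). By distance in both ratios to OM, the genes nearest to GDF15 among 19245 well above background on all 3 arrays were LOC644488 (a distance of 0.12 in log2 units), SCG5 (0.13) and KRT86 (0.13). SCG5 gave 274, 194 and 951 a.u. on OM, MB and NM. Those nearest to GADD45A were PLAAT4 (0.0047), ADAP2 (0.029) and ZNF177 (0.038). PLAAT4 gave 1060, 576 and 2162 a.u. on OM, MB and NM. Over only 3 arrays, near patterns are common and rest on the same arrays.

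Promoter windows were searched for the letters of 2 motifs on both strands. The windows run from 250 bases before to 50 after each start and come from RefSeq on GRCh38.p14, and 14 of them belonged to 8 of the 10 genes, without CDKN1C and GADD45A. TGATGNAA, a core of the element that ATF4 and C/EBP factors bind, was in 0 of the 14 and in 3.62% of all 35116 windows. The p53 half-site consensus was in 0 of the 14 and in 6.63% of all windows. In the windows of the other lists, the first was in 4 of 22 for the ATF4 response genes and the second in 7 of 38 for the other p53 targets. A 0 says only that the letters are not in these short windows. For GDF15, the widest-ranging gene, the 250 bases before the start at chr19:18385908-18386157 (plus strand, GC content 58.4% against a median of 58% over all windows) are printed, with no letters marked because neither motif was found.
GDF15 upstream: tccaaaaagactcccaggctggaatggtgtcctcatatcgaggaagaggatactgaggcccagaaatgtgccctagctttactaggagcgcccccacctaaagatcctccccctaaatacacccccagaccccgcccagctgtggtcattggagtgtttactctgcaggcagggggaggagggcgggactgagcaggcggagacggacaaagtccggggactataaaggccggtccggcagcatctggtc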

How the data were processed

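Total RNA of OM, MB and NM was labelled with Cy3 and hybridised to 1 array each. Every spot's intensity from Feature Extraction 9.5.3.1 was deposited, background-subtracted and linear, with no scaling between arrays, and a value table with the same intensities (130128 of 130128 within 0.1%). Control and outlier spots were left out, spots of a probe averaged, and arrays scaled to the average of ACTB, GAPDH and HSP90AA1, since the study names HSP90 without a gene. A gene took its brightest probe. A call needed 2-fold or 5-fold and over 100 a.u. on the brighter array, and a probe was well above background where over 50% of its used spots were. The number of arrays limits the precision, and no test across samples was possible.

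The members and lists were chosen with earlier results of these data known. Named are all members, list genes called at 2-fold in any comparison, MDM4, TP63 and TP73, and the 3 genes nearest to each of the 2 widest-ranging members. Lists beyond the 10 genes were other CDK inhibitors, CDKs with cyclins and RB, p53 regulators (1 listed gene is not reported here), p53 targets, BTG and GADD45 relatives, ATF4 response, proliferation, GDF15 receptor and cell type markers. Probe names were updated by accession (23429 probes), symbol (2320) or synonym (1043), and 14208 kept the array's name. The scripts were tested on simulated data. 13 alternatives were tried. Python 3.11.15, numpy 2.4.6, pandas 2.3.3, matplotlib 3.10.9 and limma 3.58.1 in R 4.3.3 were used.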

Additional observations from a re-analysis of the deposited data

How the results depend on the processing

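No paired analysis was possible because each population had 1 array. Of 156 member counts under the 13 alternatives, 149 stayed within 1.5 times the reported count and 7 moved further, each to 1. All 7 came under changed scalings. Most reported counts were 0, and some alternatives, such as the value table with the same intensities, could change little. The 149 therefore say little about stability. With 75th percentile scaling and with spike-in scaling, 1 member (GADD45A) was 2-fold or more lower in MB than OM, and 1 (GDF15) was 5-fold or more lower in MB than NM. With the geometric mean of the housekeeping genes, 1 member (GDF15) was 5-fold or more lower in MB than NM. With quantile normalization, 1 member (CDKN2C) passed 2-fold upward in MB against OM, and 1 (GDF15) in place of 2 was higher in NM than OM, since GADD45A came to 1.98-fold. The scalings also moved the median log2 ratio of all genes for MB over OM from 0.09 to -0.09 (75th percentile) and -0.21 (spike-in). No called value changed sign. Over all settings GDF15 was 3.17-fold to 3.99-fold higher in NM than OM and 4.20-fold to 5.45-fold lower in MB than NM. GADD45A was 1.98-fold to 2.44-fold higher in NM than OM and 3.58-fold to 4.70-fold lower in MB than NM, and CDKN2C was 1.59-fold to 2.13-fold higher in MB than OM. CDKN1B came to 2.04-fold lower in MB than NM with spike-in scaling, which made 3 members past 2-fold there. Without the 100 a.u. minimum, 3 members passed for MB against NM and for NM against OM, since CDKN2B, at background, was then counted. The signs of MB over OM turned for CDKN1A, MDM2 and BTG2 in 3 settings each. Signals near the background, at 19.4 to 29.1 a.u. on the 3 arrays, limit what can be said of CDKN2A and CDKN2B.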
